A study of Homo sapiens with 12 samples.

Results

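The 50 genes described here encode the proteins that condense chromosomes, attach them to the spindle at the kinetochore, hold back anaphase until every chromosome is attached, and finish division. They were chosen by name, with earlier results of these data known, from 19775 genes that the arrays name singly. Each gene was read by the probe set with the highest mean over the 12 arrays. All 50 had such a probe set, and all 50 lay above the filter on low values (a mean of 5.46 log2) that left 13225 genes for testing. The values are log2 intensities of RMA-summarised microarray probe sets, so a difference of -1 is a level lower by a factor of 2.

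The cells were MDA-MB-231, an established human breast cancer line of mesenchymal appearance that lacks oestrogen receptor, progesterone receptor and HER2 amplification. A first group of 4 cultures received siRNA mix 2 against YAP and TAZ, another group of 4 received siRNA mix 1 against the same proteins, and 4 cultures received control siRNA. Every culture was seeded sparsely and transfected on day 2 with 33 nM siRNA in RNAi MAX, got new medium on day 3 and was harvested on day 4, so no group was left without transfection. The replicates, lettered A to D, were independent cultures handled in parallel, per the series text. All came from 1 cell line, and each mix was directed at both proteins at once, so effects of YAP and of TAZ cannot be told apart. The same 4 control arrays served both comparisons with control.

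A kinetochore is built at each cell division on centromeric chromatin marked by the histone variant CENP-A: an inner layer of centromere proteins recruits the outer NDC80 complex, which grips microtubule ends. Kinases and binding proteins of the spindle checkpoint watch over this attachment and restrain CDC20, the activator of the anaphase-promoting complex, until all chromosomes are attached. The complex then marks securin for destruction, separase is freed to cut cohesin, and condensin-shaped chromatids part. YAP and TAZ are coactivators restrained by the Hippo kinases, and TEAD factors bring them to genes of growth and proliferation. In dividing cells most of these mitotic genes are transcribed late in the cycle, through MuvB complexes with B-MYB and FOXM1.

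The targeted mRNAs were reduced by both mixes. YAP1, which encodes YAP, was at 8.09 ± 0.097 log2 with mix 2, 8.15 ± 0.36 with mix 1 and 11.16 ± 0.096 with control siRNA (SD, n = 4 arrays each), and WWTR1, which encodes TAZ, was at 8.95 ± 0.12 log2 with mix 2, 9.07 ± 0.22 with mix 1 and 11.40 ± 0.096 with control siRNA. Between the mixes YAP1 differed by -0.062 (95% interval -0.35 to 0.23, adjusted p = 0.73) and WWTR1 by -0.12 (95% interval -0.33 to 0.094, adjusted p = 0.344), neither past the threshold, and the WWTR1 difference passed when mix 1 replicate C was left out (-0.21, adjusted p = 0.0491). Array medians ran from 5.69 to 5.78, and correlations across genes between replicates of one group lay between 0.993 and 0.998. The 3′ minus 5′ signal of the ACTB control probe sets, a sign of RNA integrity, ranged from 1.36 to 1.83 log2 with mix 2, from 1.61 to 2.24 with mix 1 and from 1.38 to 1.99 with control siRNA, and these ranges overlapped. All 5 markers of the line passed the filter, with a mean level over VIM, CD44, CAV1, KRT18 and AXL of 12.99 to 13.02 with mix 2, 12.83 to 12.88 with mix 1 and 13.13 to 13.16 with control siRNA. Past the threshold, AXL was lower with mix 2 (-0.41) and mix 1 (-1.11), as was CD44 (-0.29 and -0.26). With mix 1 alone CAV1 was lower (-0.31) and VIM higher (0.12), and KRT18 passed with neither mix. Among the markers the line should lack, PGR and CDH1 lay below the filter, and ESR1 (6.19, 6.26 and 6.31 with mix 2, mix 1 and control siRNA) and ERBB2 (7.95, 7.75 and 7.76) lay above it. Of the 4 leukocyte markers measured, the defining marker PTPRC lay below the filter in every group (4.47, 3.80 and 4.04). CD3E did not differ past the threshold, whereas LYZ rose by 4.22 with mix 2 and 4.19 with mix 1, and CD14 by 1.24 and 1.12. The mean over these 4 markers was 6.46 to 6.63 with mix 2, 6.23 to 6.37 with mix 1 and 4.97 to 5.13 with control siRNA. The part of these markers in the mitotic results was not tested.

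Every one of the 50 mitotic genes fell with mix 2 and with mix 1. Averaged over the 50 genes, the level was 8.66, 8.48, 8.65 and 8.55 log2 on the mix 2 arrays A to D, 9.21, 9.13, 9.08 and 9.12 on the mix 1 arrays and 10.86, 10.85, 10.82 and 10.87 on the control arrays. The 3 groups did not overlap in this average, with mix 2 lowest and control highest. With mix 2 all 50 passed the limma threshold (adjusted p below 0.05) in the lower direction, against 31.9% of all genes tested. With mix 1 all 50 passed as well, against 32.3% of all genes. In bulk RNA such as this, fewer dividing cells and less RNA of these genes per cell cannot be told apart.

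The falls were large as well as shared. At least 2-fold lower were 47 genes with mix 2 (9.35% of all genes tested) and 44 with mix 1 (8.28%). At least 4-fold lower were 37 with mix 2 (2.19% of all genes) and 13 with mix 1 (1.28%). The median log2 difference over the 50 was -2.35 with mix 2 and -1.78 with mix 1, where the median over all genes tested was 0.028 and 0.005. The median gene thus kept 19.7% of its control level with mix 2, in a range from 8.30% (SPC25) to 73.3% (ECT2). With mix 1 the median gene kept 29.1%, in a range from 13.1% (SPC25) to 65.5% (ECT2). For all 50 genes every mix 2 array and every mix 1 array lay below the lowest control array, a separation that 31% of all genes tested showed with either mix. Among the 132 genes with the lowest fitted differences in the whole table were 13 of the 50 with mix 2 and 11 with mix 1.

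**Figure D1:**
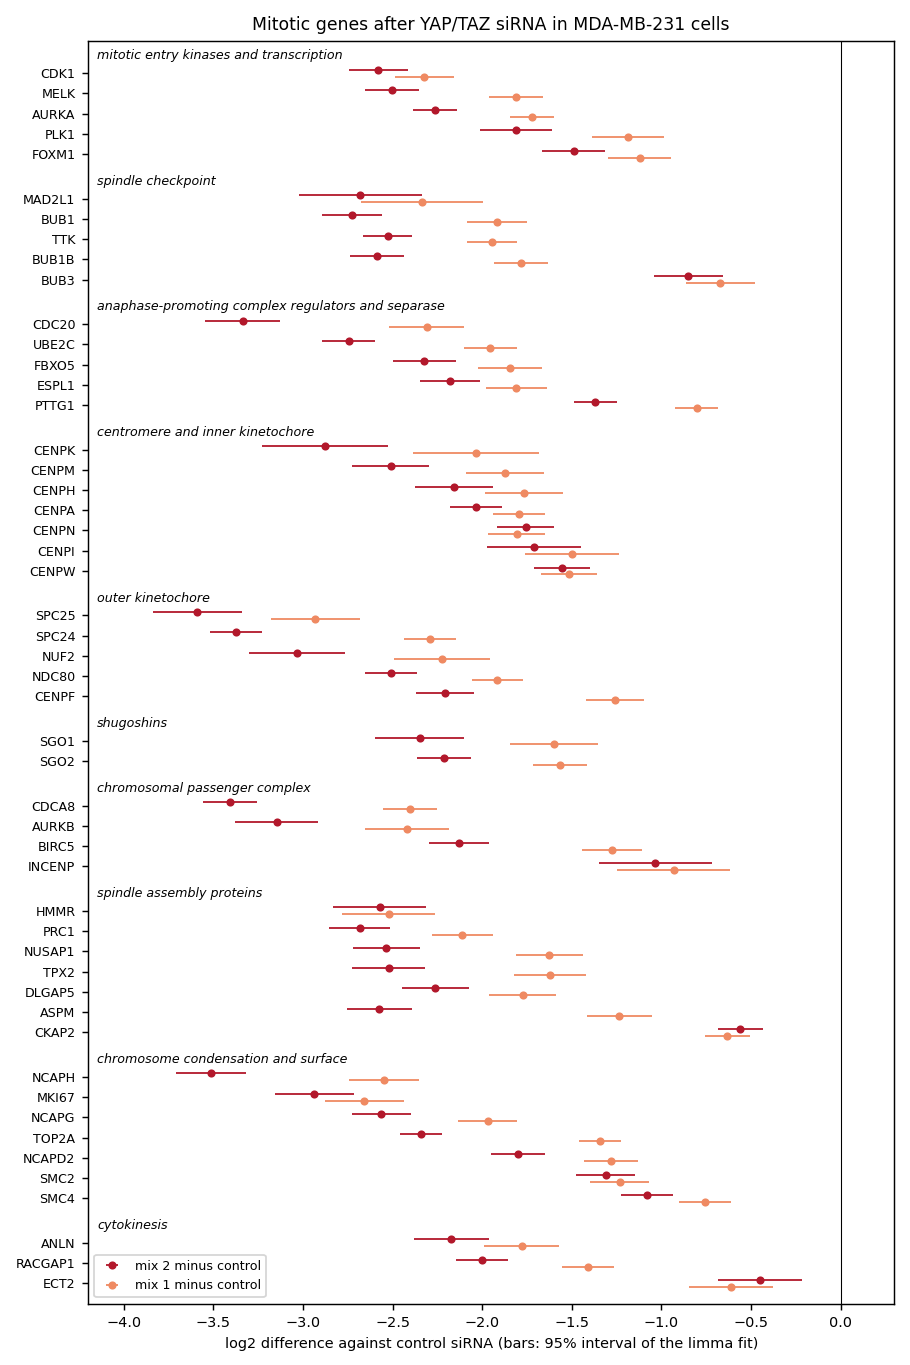
Log2 difference of each of the 50 genes against control siRNA (x axis), by role group (y axis), for mix 2 (dark red) and mix 1 (orange), with bars for the 95% interval of the limma fit (n = 4 arrays per group). All points and intervals lie left of 0, from SPC25 (-3.59 with mix 2) to ECT2 (-0.45 with mix 2).

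**Figure D2:**
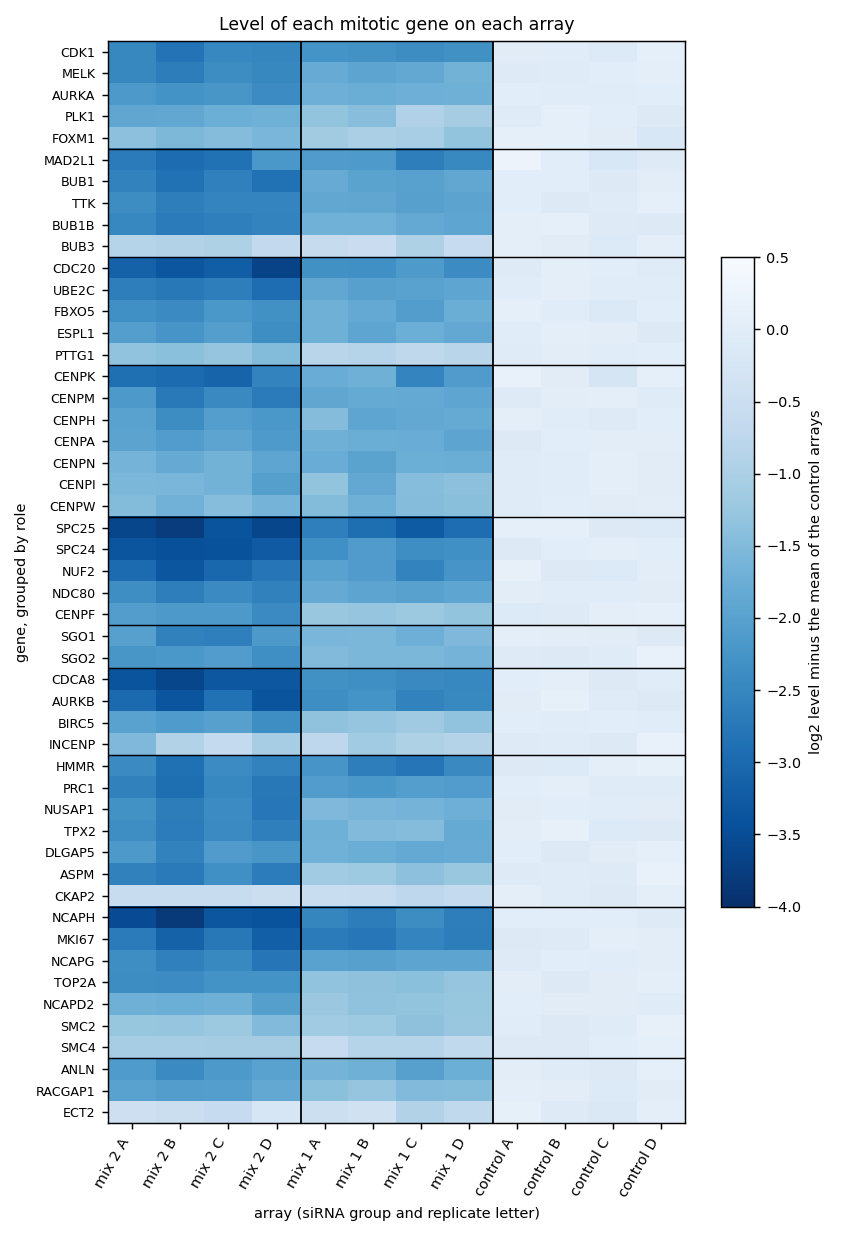
Level of each gene on each of the 12 arrays as a log2 difference from the mean of its control arrays (colour), with arrays in columns and genes in rows by role group. The 4 mix 2 columns are darkest, the mix 1 columns intermediate and the control columns near 0, and BUB3, CKAP2 and ECT2 stay pale in all columns.

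Upstream sequences are shown for 4 strongly lowered genes that carry both of the DNA elements best known from late cell cycle promoters, and for ECT2, the gene that moved least. The elements are the cell cycle genes homology region (CHR; letters TTTGAA or TTCAAA), where MuvB complexes bind, and the CCAAT box (CCAAT or ATTGG), where NF-Y binds. Each stretch is the 250 bases before the start of transcription, written 5′ to 3′ on the gene's strand, from RefSeq promoters of GRCh38.p14, with the letters of both elements in capitals. SPC25 lies at chr2:168890431-168890680 (minus strand), CDCA8 at chr1:37692266-37692515 (plus), CDC20 at chr1:43358731-43358980 (plus), MKI67 at chr10:128126424-128126673 (minus) and ECT2 at chr3:172750476-172750725 (plus).
SPC25: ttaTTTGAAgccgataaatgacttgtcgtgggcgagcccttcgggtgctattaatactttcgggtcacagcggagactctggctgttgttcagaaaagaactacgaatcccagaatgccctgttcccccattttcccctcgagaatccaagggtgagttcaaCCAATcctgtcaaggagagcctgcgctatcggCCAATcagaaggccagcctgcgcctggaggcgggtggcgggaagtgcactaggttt
CDCA8: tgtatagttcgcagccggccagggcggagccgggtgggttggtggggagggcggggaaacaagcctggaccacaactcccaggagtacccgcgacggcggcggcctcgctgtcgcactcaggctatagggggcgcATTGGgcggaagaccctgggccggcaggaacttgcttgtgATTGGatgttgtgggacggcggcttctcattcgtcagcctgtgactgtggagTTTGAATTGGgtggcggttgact
CDC20: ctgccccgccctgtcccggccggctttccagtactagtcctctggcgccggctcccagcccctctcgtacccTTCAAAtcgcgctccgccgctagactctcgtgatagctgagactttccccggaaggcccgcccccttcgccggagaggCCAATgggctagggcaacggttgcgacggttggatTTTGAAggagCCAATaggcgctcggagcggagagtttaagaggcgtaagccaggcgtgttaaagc
MKI67: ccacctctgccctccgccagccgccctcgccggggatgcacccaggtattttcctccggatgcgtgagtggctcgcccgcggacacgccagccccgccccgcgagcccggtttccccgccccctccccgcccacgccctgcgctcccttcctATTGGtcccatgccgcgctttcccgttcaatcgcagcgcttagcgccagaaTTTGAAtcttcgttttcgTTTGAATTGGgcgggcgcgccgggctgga
ECT2: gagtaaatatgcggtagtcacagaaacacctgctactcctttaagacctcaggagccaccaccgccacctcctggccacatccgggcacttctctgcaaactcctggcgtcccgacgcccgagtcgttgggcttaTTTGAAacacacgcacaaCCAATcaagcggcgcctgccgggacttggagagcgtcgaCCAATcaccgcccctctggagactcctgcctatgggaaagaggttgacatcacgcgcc
Counting back from -1 at the base before the start, the first base of the CHR stood at -247 in SPC25, -23 in CDCA8, -178 and -65 in CDC20, -47 and -29 in MKI67 and -115 in ECT2. The CCAAT box began at -88 and -56 in SPC25, at -115, -75 and -18 in CDCA8, at -100 and -55 in CDC20, at -98 and -24 in MKI67, and at -97 and -58 in ECT2. In CDCA8 and MKI67 the CHR nearest the start shares a base with a CCAAT box read on the other strand. ECT2, whose mRNA changed least, has both elements too.

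The reference table held promoters of 40 of the 50 genes; AURKA, FOXM1, BUB3, TTK, UBE2C, CENPH, CENPM, BIRC5, TPX2 and RACGAP1 were not in it. On either strand of the 250 bases, the CHR letters occurred in 20 of the 40 (50%), in 13.6% of all 27305 promoters of the table and in 8.53% of the 10667 tested genes with a promoter there. In 11 of the 40 they began within 50 bases before the start. NCAPH and SPC24, also strongly lowered (mean log2 difference over both mixes -3.03 and -2.83), had no CHR letters in the window. The CCAAT letters occurred in 28 of the 40 (70%), in 33% of all promoters and in 35% of those of tested genes. Both together occurred in 16 (40%), against 4.85% of all promoters and 3.4% of those of tested genes. The letters GGAATG (or CATTCC), the core that TEAD factors recognise, occurred in 4 of the 40 (10%), against 11.9% of all promoters and 9.47% of those of tested genes. These 4 were CENPK, NUF2, CENPF and HMMR. Such letters describe the window and are not measured binding, and distant enhancers lie outside it.

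All 5 genes of mitotic entry fell, with log2 differences of -2.58 to -1.49 with mix 2 and -2.33 to -1.12 with mix 1. CDK1, the kinase that drives cells into mitosis, fell most, with 9.99, 9.65, 9.97 and 9.96 log2 with mix 2, 10.20, 10.16, 10.08 and 10.15 with mix 1 and 12.48, 12.46, 12.37 and 12.58 with control siRNA. No array of one group reached the range of another. Its log2 difference was -2.58 with mix 2 (SE 0.0767, limma adjusted p = 8.67e-13) and -2.33 with mix 1 (adjusted p = 3.55e-12). FOXM1, a transcription factor for late cell cycle genes, moved least in this group, with 8.74, 8.56, 8.65 and 8.52 log2 with mix 2, 8.99, 9.10, 9.05 and 8.80 with mix 1 and 10.20, 10.21, 10.10 and 9.92 with control siRNA. Its groups were also separate, and its difference was -1.49 with mix 2 (SE 0.0827, limma adjusted p = 5.66e-10) and -1.12 with mix 1 (adjusted p = 1.52e-08). The mitotic kinase AURKA, which matures spindle poles, differed by -2.27 and -1.73 with mix 2 and mix 1. PLK1, a kinase needed from entry to exit, differed by -1.81 and -1.19, and its mix 2 mean of 5.43 lay just under the filter value. MELK, a kinase abundant in proliferating cells, differed by -2.50 and -1.81.

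All 5 genes of the spindle checkpoint fell with both mixes, and BUB3 fell least. MAD2L1, whose product closes around CDC20 to form the inhibitory checkpoint complex, had 8.99, 8.71, 8.80 and 9.47 log2 with mix 2, 9.57, 9.52, 9.04 and 9.21 with mix 1 and 11.92, 11.69, 11.47 and 11.61 with control siRNA. The control arrays lay far above both knockdown groups, whose own ranges overlapped. Its difference was -2.68 with mix 2 (SE 0.159, limma adjusted p = 1.2e-09) and -2.34 with mix 1 (adjusted p = 6.31e-09), which left 15.6% and 19.8% of the control level. BUB3, which carries BUB1 and BUBR1 to the kinetochore, had 12.27, 12.23, 12.18 and 12.46 log2 with mix 2, 12.54, 12.61, 12.19 and 12.51 with mix 1 and 13.19, 13.14, 13.02 and 13.19 with control siRNA. Its knockdown arrays stayed below every control array, though at 55.5% and 62.7% of the control level with mix 2 and mix 1, and overlapped between the mixes. The difference was -0.85 with mix 2 (SE 0.0897, limma adjusted p = 7.39e-07) and -0.67 with mix 1 (adjusted p = 9.44e-06). The kinase gene BUB1 (-2.73 and -1.92 with mix 2 and mix 1), BUB1B, which encodes BUBR1 (-2.59 and -1.78), and TTK, the MPS1 kinase that starts checkpoint signalling (-2.53 and -1.95), differed by more than BUB3 with each mix.

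The regulators of the anaphase-promoting complex and separase fell together. CDC20, its mitotic activator and the checkpoint's target, had 9.52, 9.31, 9.45 and 9.0 log2 with mix 2, 10.33, 10.31, 10.51 and 10.24 with mix 1 and 12.61, 12.73, 12.67 and 12.62 with control siRNA. The groups stood well apart, with the lowest level on mix 2 array D. The difference was -3.34 with mix 2 (SE 0.0974, limma adjusted p = 7.24e-13) and -2.31 with mix 1 (adjusted p = 3.56e-11), a 10.1-fold and a 4.96-fold fall. PTTG1, which encodes securin, the inhibitor of separase, had 11.81, 11.73, 11.84 and 11.65 log2 with mix 2, 12.31, 12.28, 12.40 and 12.31 with mix 1 and 13.09, 13.16, 13.11 and 13.15 with control siRNA. It was the least lowered of these genes, by -1.37 with mix 2 (SE 0.0561, limma adjusted p = 2.1e-11) and -0.80 with mix 1 (adjusted p = 8.47e-09), and its groups did not overlap. Its probe set is of a kind that can also bind related transcripts, and PTTG1 has close relatives in the genome. UBE2C, the ubiquitin-conjugating enzyme of the complex, differed by -2.75 and -1.96 with mix 2 and mix 1, FBXO5, which encodes its inhibitor EMI1, by -2.32 and -1.85, and ESPL1, separase itself, by -2.18 and -1.81.

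In the inner kinetochore, CENPA, the histone variant that marks the centromere, differed by -2.04 and -1.80 with mix 2 and mix 1, and the 6 other genes also fell. CENPK, a subunit of the constitutive centromere network, fell most, with 7.37, 7.29, 7.18 and 7.72 log2 with mix 2, 8.49, 8.56, 7.73 and 8.15 with mix 1 and 10.44, 10.26, 10.02 and 10.35 with control siRNA. It had the largest SE of the 50 genes, and the mixes stayed apart only narrowly, at mix 2 array D and mix 1 array C. The difference was -2.88 with mix 2 (SE 0.165, limma adjusted p = 8.03e-10) and -2.04 with mix 1 (adjusted p = 4.36e-08). CENPW, a histone-fold subunit of the CENP-T complex, fell least with mix 2, and CENPI with mix 1. CENPW had 9.73, 9.54, 9.76 and 9.56 log2 with mix 2, 9.72, 9.50, 9.74 and 9.79 with mix 1 and 11.16, 11.22, 11.20 and 11.23 with control siRNA. Both mixes lay below control and covered nearly the same range, and the difference was -1.56 with mix 2 (SE 0.0724, limma adjusted p = 8.41e-11) and -1.52 with mix 1 (adjusted p = 1.36e-10). CENPI, of the same network as CENPK, had 6.81, 6.79, 6.71 and 6.32 log2 with mix 2, 7.06, 6.50, 6.92 and 7.0 with mix 1 and 8.33, 8.35, 8.42 and 8.37 with control siRNA, and mix 2 array D and mix 1 array B were the lowest of their groups. CENPI differed by -1.71 with mix 2 (SE 0.122, limma adjusted p = 9.27e-09) and -1.50 with mix 1 (adjusted p = 4.53e-08). CENPN, which reads CENP-A nucleosomes, had 9.94, 9.77, 9.93 and 9.66 log2 with mix 2, 9.81, 9.61, 9.85 and 9.83 with mix 1 and 11.54, 11.56, 11.64 and 11.59 with control siRNA, with both knockdown groups below control and overlapping each other. CENPN differed by -1.76 with mix 2 (SE 0.0739, limma adjusted p = 2.83e-11) and -1.81 with mix 1 (adjusted p = 2.62e-11). The network subunits CENPM and CENPH differed by -2.51 and -1.87 and by -2.16 and -1.77 with mix 2 and mix 1.

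The outer kinetochore had the lowest median of the role groups with each mix, -3.04 log2 with mix 2 and -2.22 with mix 1 over 5 genes. SPC25, which links the NDC80 complex to the inner layers, was the most lowered of all 50 genes with each mix, at 5.96, 5.77, 6.19 and 5.95 log2 with mix 2, 6.93, 6.64, 6.31 and 6.62 with mix 1 and 9.65, 9.64, 9.49 and 9.45 with control siRNA. Its groups did not overlap, and the mix 2 arrays lay less than 1 log2 unit above the filter value. The difference was -3.59 with mix 2 (SE 0.115, limma adjusted p = 1.78e-12) and -2.93 with mix 1 (adjusted p = 1.81e-11), a 12-fold and a 7.63-fold fall. Its partner SPC24 differed by -3.38 and -2.29 with mix 2 and mix 1, and the microtubule-binding pair NUF2 and NDC80 by -3.04 and -2.22 and by -2.51 and -1.92. CENPF, a large protein of the outermost corona, moved least, with 9.17, 9.07, 9.07 and 8.81 log2 with mix 2, 9.99, 9.95, 10.05 and 9.94 with mix 1 and 11.14, 11.19, 11.29 and 11.34 with control siRNA. These groups were separate as well, and the difference was -2.21 with mix 2 (SE 0.0755, limma adjusted p = 3.16e-12) and -1.26 with mix 1 (adjusted p = 1.6e-09). A second, dim probe set of SPC24 did not show the fall (-0.053 with mix 2, adjusted p = 0.774, and -0.17 with mix 1, adjusted p = 0.294), and its mean over the arrays was 5.53 log2, close to the filter value.

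Both shugoshins, which shield centromeric cohesin from early loss, fell by similar amounts. SGO1 had 5.68, 5.12, 5.08 and 5.55 log2 with mix 2, 6.13, 6.15, 5.98 and 6.18 with mix 1 and 7.76, 7.74, 7.70 and 7.63 with control siRNA, and SGO2 had 8.46, 8.49, 8.58 and 8.33 log2 with mix 2, 9.19, 9.11, 9.11 and 9.05 with mix 1 and 10.63, 10.60, 10.64 and 10.85 with control siRNA. For each gene the 3 groups were in separate ranges, with mix 2 lowest. SGO1 differed by -2.35 with mix 2 (SE 0.115, limma adjusted p = 1.4e-10) and -1.60 with mix 1 (adjusted p = 1.13e-08). SGO2 differed by -2.22 with mix 2 (SE 0.0699, limma adjusted p = 1.51e-12) and -1.57 with mix 1 (adjusted p = 6.62e-11). The SGO1 mean with mix 2, 5.36, was below the filter value.

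Of the chromosomal passenger complex, which corrects faulty attachments, all 4 genes fell, INCENP least. CDCA8, which encodes borealin, a subunit that brings the complex to centromeres, had 7.56, 7.34, 7.62 and 7.61 log2 with mix 2, 8.61, 8.59, 8.50 and 8.44 with mix 1 and 10.95, 11.01, 10.87 and 10.93 with control siRNA. The groups were widely separated, and the difference was -3.41 with mix 2 (SE 0.0697, limma adjusted p = 3.42e-14) and -2.41 with mix 1 (adjusted p = 1.01e-12), a 10.6-fold and a 5.3-fold fall. INCENP, the scaffold of the complex, had 5.28, 5.91, 6.16 and 5.74 log2 with mix 2, 6.06, 5.66, 5.86 and 5.92 with mix 1 and 6.75, 6.77, 6.72 and 6.99 with control siRNA. Its arrays were low and scattered with mix 2, array A being the lowest, and the knockdown groups overlapped each other but not control. INCENP differed by -1.04 with mix 2 (SE 0.147, limma adjusted p = 1.65e-05) and -0.93 with mix 1 (adjusted p = 4.92e-05). AURKB, the kinase of the complex, differed by -3.15 and -2.42 with mix 2 and mix 1, and BIRC5, which encodes survivin, by -2.13 and -1.28.

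All 7 genes of proteins that build the spindle fell, CKAP2 least. HMMR, which helps to organise spindle poles, had the lowest mean difference over both mixes, with 7.40, 6.95, 7.43 and 7.26 log2 with mix 2, 7.60, 7.19, 7.06 and 7.39 with mix 1 and 9.74, 9.73, 9.90 and 9.96 with control siRNA. The knockdown groups covered overlapping ranges, more than 2 log2 units under control, and the difference was -2.57 with mix 2 (SE 0.121, limma adjusted p = 9.67e-11) and -2.52 with mix 1 (adjusted p = 1.44e-10). With mix 2 alone PRC1 and ASPM were lower still. CKAP2, a microtubule-associated protein, had 10.35, 10.35, 10.34 and 10.42 log2 with mix 2, 10.38, 10.34, 10.18 and 10.27 with mix 1 and 11.0, 10.89, 10.84 and 10.97 with control siRNA. Replicates were close, so a fall to 67.8% and 64.5% of control with mix 2 and mix 1 passed the test, at -0.56 with mix 2 (SE 0.0592, limma adjusted p = 7.53e-07) and -0.63 with mix 1 (adjusted p = 2.16e-07). The antiparallel bundling protein PRC1 differed by -2.69 and -2.11 with mix 2 and mix 1, and NUSAP1, a microtubule stabiliser near chromosomes, by -2.54 and -1.63. TPX2, which activates AURKA on the spindle, differed by -2.52 and -1.62, and DLGAP5, a kinetochore-fibre protein also called HURP, by -2.26 and -1.78. ASPM, which acts at spindle poles, differed by -2.58 and -1.24.

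Among genes of chromosome condensation and the chromosome surface, the fall was larger for the kleisin of condensin I than for the SMC subunits that both condensins share. NCAPH, that kleisin, had 6.91, 6.61, 7.08 and 7.03 log2 with mix 2, 7.90, 7.77, 8.02 and 7.79 with mix 1 and 10.43, 10.44, 10.44 and 10.37 with control siRNA. Its groups were far apart, and the difference was -3.51 with mix 2 (SE 0.0913, limma adjusted p = 2.51e-13) and -2.55 with mix 1 (adjusted p = 7.82e-12), a 11.4-fold and a 5.86-fold fall. SMC4, one of the shared SMC ATPases, had 10.87, 10.86, 10.85 and 10.85 log2 with mix 2, 11.32, 11.07, 11.08 and 11.25 with mix 1 and 11.87, 11.87, 11.96 and 12.05 with control siRNA, with separate groups and mix 2 arrays within 0.02 log2 of each other. SMC4 differed by -1.08 with mix 2 (SE 0.0667, limma adjusted p = 1.89e-09) and -0.76 with mix 1 (adjusted p = 1.11e-07). SMC2, its partner, had 9.10, 9.07, 9.17 and 8.86 log2 with mix 2, 9.21, 9.19, 9.0 and 9.11 with mix 1 and 10.34, 10.28, 10.32 and 10.50 with control siRNA, and differed by -1.31 with mix 2 (SE 0.0767, limma adjusted p = 1.03e-09) and -1.23 with mix 1 (adjusted p = 2.35e-09). The knockdown arrays of SMC2 overlapped each other and lay more than 1 log2 unit under control. The other condensin I subunits NCAPG and NCAPD2 differed by -2.56 and -1.97 and by -1.80 and -1.28 with mix 2 and mix 1. TOP2A, the topoisomerase that untangles sister chromatids, differed by -2.34 and -1.34, and MKI67, whose product coats mitotic chromosomes and is the Ki-67 proliferation marker, by -2.94 and -2.66.

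Of the cytokinesis genes, ECT2 moved least of all 50. ECT2, the exchange factor that activates RhoA at the division plane, had 11.33, 11.31, 11.18 and 11.57 log2 with mix 2, 11.32, 11.41, 10.90 and 11.11 with mix 1 and 11.91, 11.74, 11.66 and 11.87 with control siRNA. Every knockdown array was below every control array, by a margin of less than 0.1 log2 between mix 2 array D and control array C. The difference was -0.45 with mix 2 (SE 0.109, limma adjusted p = 0.00203) and -0.61 with mix 1 (adjusted p = 0.000163). ANLN, the scaffold anillin, had 10.81, 10.52, 10.78 and 10.96 log2 with mix 2, 11.30, 11.24, 10.91 and 11.19 with mix 1 and 12.98, 12.91, 12.85 and 13.02 with control siRNA, far below control in both knockdown groups, which overlapped narrowly. ANLN differed by -2.17 with mix 2 (SE 0.0972, limma adjusted p = 5.49e-11) and -1.78 with mix 1 (adjusted p = 5.62e-10), and RACGAP1, the centralspindlin subunit that recruits ECT2, by -2.0 and -1.41 with mix 2 and mix 1.

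Most of these genes were lower with mix 2 than with mix 1. Mix 1 and control arrays shared a split of A and B from C and D that mix 2 arrays did not show. Array medians A to D were 5.69, 5.69, 5.75 and 5.73 with control siRNA. They were 5.71, 5.71, 5.78 and 5.77 with mix 1 and 5.73, 5.74, 5.74 and 5.73 with mix 2. Whether the mix 2 arrays were handled differently was not tested, and such a difference cannot be told apart from the mixes. Tested directly, 40 of the 50 were lower with mix 2 than with mix 1, none was higher, and 10 did not pass, where 25% of all genes tested were lower and 28.7% higher. With other probe sets 2 of these 10 passed as higher with mix 2: ECT2 when all its probe sets above the filter were averaged (0.30, adjusted p = 0.0288, against 0.16, adjusted p = 0.233, by its brightest) and SMC2 without shared probe sets (0.22, adjusted p = 0.0407, against -0.078, adjusted p = 0.426). Others of the 10 passed as lower with all probe sets averaged: BUB3 (-0.31, adjusted p = 0.000139), MAD2L1 (-0.47, adjusted p = 0.000259) and CENPN (-0.73, adjusted p = 2.95e-06). Without shared probe sets BUB3 (-0.96, adjusted p = 4.99e-06) and CENPN (-1.32, adjusted p = 9.37e-07) passed as lower too. By the brightest probe sets the fitted difference was below 0 for 47 genes, with a median of -0.59 against 0.025 over all genes. In 37 genes the arrays of the mixes did not overlap and mix 2 was lower (21.7% of all genes tested). At least 2-fold lower were 5 genes (3.61% of all genes): ASPM (-1.34, adjusted p = 8.53e-09), SPC24 (-1.08), CDC20 (-1.03), CDCA8 (-1.0) and TOP2A (-1.0). ASPM had 8.79, 8.67, 9.03 and 8.69 log2 with mix 2, 10.23, 10.19, 9.99 and 10.13 with mix 1 and 11.31, 11.33, 11.32 and 11.52 with control siRNA, so the mix 1 mean was nearer to the control mean than to the mix 2 mean. TOP2A had 10.70, 10.68, 10.81 and 10.81 log2 with mix 2, 11.77, 11.73, 11.70 and 11.80 with mix 1 and 13.12, 13.02, 13.09 and 13.14 with control siRNA, and the 3 groups lay in separate narrow ranges.

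The 10 genes that did not pass between the mixes came from 6 role groups. Their differences were -0.18 (95% interval -0.37 to 0.015, adjusted p = 0.113) for BUB3, -0.34 (95% interval -0.68 to -0.0008, adjusted p = 0.0855) for MAD2L1 and -0.21 (95% interval -0.47 to 0.049, adjusted p = 0.161) for CENPI. For CENPN the difference was 0.05 (95% interval -0.11 to 0.21, adjusted p = 0.604), for CENPW -0.04 (95% interval -0.20 to 0.12, adjusted p = 0.676), for INCENP -0.10 (95% interval -0.42 to 0.21, adjusted p = 0.592) and for HMMR -0.05 (95% interval -0.31 to 0.21, adjusted p = 0.759). CKAP2 differed by 0.072 (95% interval -0.055 to 0.20, adjusted p = 0.33), SMC2 by -0.077 (95% interval -0.24 to 0.087, adjusted p = 0.426) and ECT2 by 0.16 (95% interval -0.072 to 0.40, adjusted p = 0.233). These intervals allow mix 2 to be lower than mix 1 by 0.68 log2 for MAD2L1 and higher by 0.40 for ECT2, so they do not show equal effects. BUB3 and MAD2L1 passed as lower when mix 1 replicate C (-0.27, adjusted p = 0.00747, and -0.44, adjusted p = 0.0362) or mix 2 replicate D (-0.24, adjusted p = 0.04, and -0.50, adjusted p = 0.00693) was left out. CENPI passed without mix 1 replicate B (-0.34, adjusted p = 0.0138). MKI67, which had 8.28, 7.85, 8.24 and 7.79 log2 with mix 2, 8.29, 8.22, 8.45 and 8.32 with mix 1 and 10.91, 10.93, 11.05 and 11.02 with control siRNA, was lower with mix 2, with a difference of -0.28 (95% interval -0.50 to -0.059, adjusted p = 0.0329). This call was lost without mix 1 replicate C (-0.24, adjusted p = 0.089), mix 1 replicate D (-0.28, adjusted p = 0.0577), mix 2 replicate B (-0.22, adjusted p = 0.108) or mix 2 replicate D (-0.20, adjusted p = 0.104), and its arrays overlapped between the mixes. It was also lost without the filter (adjusted p = 0.0514) and when only the arrays of both mixes were fitted (adjusted p = 0.0607).

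**Figure D3:**
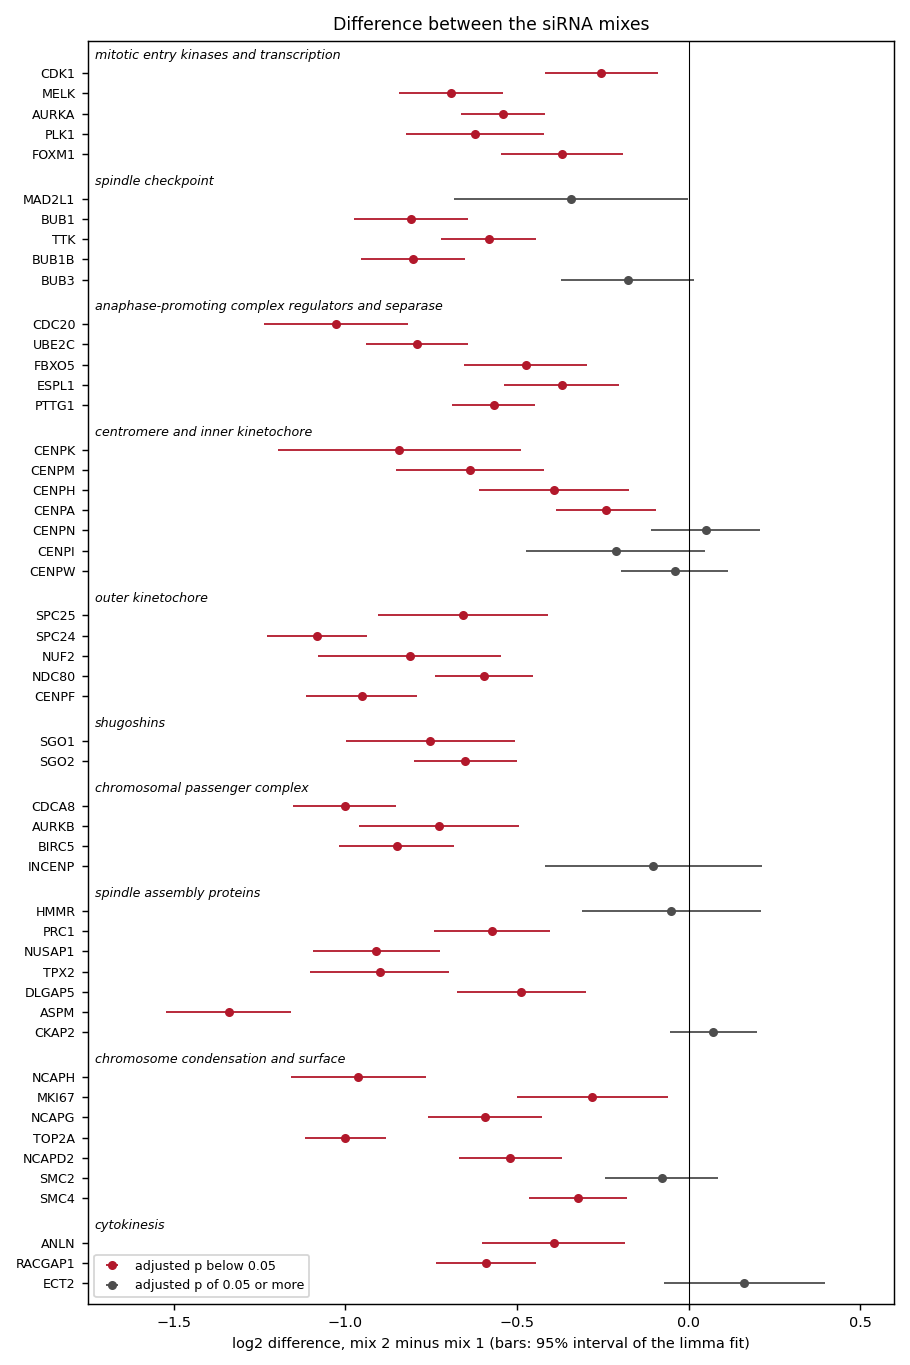
Log2 difference between the mixes (mix 2 minus mix 1, x axis) for each of the 50 genes by role group (y axis), with the 95% interval of the limma fit (n = 4 arrays per group). Red points passed the threshold and lie left of 0, from ASPM (-1.34) to CENPA (-0.24), and the 10 grey points did not pass.

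Further probe sets of the same genes mostly gave the same direction. The 50 genes had 101 probe sets, of which 51 were further probe sets of 26 genes. Of these, 39 lay above the filter value, and all 39 were lower than control in the fit with both mixes, 36 past the threshold with mix 2 and 38 with mix 1. Between the mixes 27 of the 39 were lower with mix 2 and none was higher. The probe sets of CENPN disagreed about the mixes: the brightest differed by 0.05, while the next brightest was lower with mix 2, at -1.32 (SE 0.134, adjusted p = 1.55e-06), and another by -0.91 (adjusted p = 2.95e-05). BUB3 was also lower with mix 2 by 3 of its further probe sets (-0.40, adjusted p = 0.000396, -0.43, adjusted p = 0.000116, and -0.96, adjusted p = 9.13e-06). MKI67 was lower with mix 2 by all 3 of its further probe sets (-1.01, adjusted p = 8.7e-07, -0.82, adjusted p = 6.25e-06, and -0.41, adjusted p = 0.00158). A dim AURKA probe set showed no difference past the threshold between the mixes (0.033, adjusted p = 0.923). These adjusted p-values come from a limma fit over probe sets.

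**Figure D4:**
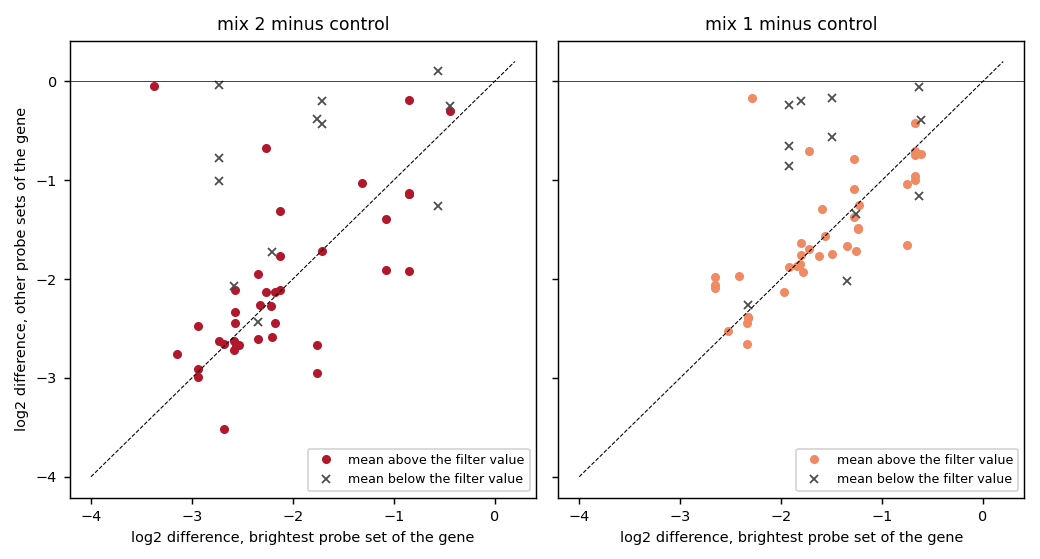
Log2 difference of the further probe sets of a gene (y axis) against that of its brightest probe set (x axis), for mix 2 (left) and mix 1 (right) against control siRNA. Filled points have a mean above the filter value of 5.46 log2 and all lie below 0; crosses are dimmer, and the dashed line marks equal differences.

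The wider machinery of division was followed in 10 lists of other genes, 122 of which passed the filter. In each pair of values given below for these genes the first is mix 2 minus control and the second mix 1 minus control in log2, each named gene passed with both, and genes said to fall most had the lowest mean of the pair. With mix 2, 94 of these were lower, 13 higher and 15 did not pass, and with mix 1, 95 were lower, 14 higher and 13 did not pass. Of all genes tested, 31.9% were lower and 36.7% higher with mix 2, and 32.3% lower and 34.8% higher with mix 1. The counts of single lists below are to be read beside these shares. Their median was -1.09 with mix 2 and -1.11 with mix 1, which is nearer to 0 than the medians of the 50 genes. Between the mixes 63 were lower with mix 2 and 23 higher, where 25% of all genes tested were lower and 28.7% higher.

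Other genes of the inner kinetochore and of CENP-A loading fell in 11 of 11 cases with mix 2 and in 9 of 11 with mix 1 (medians -1.70 and -1.83). OIP5, also called MIS18B, and HJURP, the CENP-A chaperone, fell most (-3.53 and -2.01, and -3.15 and -1.97). Of 18 genes listed for the outer kinetochore, checkpoint and corona, 15 fell and 2 rose with mix 2, and 16 fell and 1 rose with mix 1 (medians -1.55 and -1.47). The 18 include BORA and GTSE1, whose products are not core kinetochore parts, and both fell with each mix. SKA1 (-3.67 and -2.55) and SKA3 (-2.82 and -2.52), which help the NDC80 complex to track microtubule ends, fell most. The SKA1 mean was 4.35 with mix 2, below the filter value, and 5.47 with mix 1, close to that value. The size of the SKA1 fall is therefore uncertain. MAD1L1, the checkpoint partner that loads MAD2L1, rose by 0.44 with mix 2 (adjusted p = 0.00294) and 0.61 with mix 1 (adjusted p = 0.000226).

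Of 6 genes of condensin II and shared chromosome structure, 5 fell and 1 rose with each mix (medians -1.73 with mix 2 and -1.41 with mix 1). The chromokinesin KIF4A (-2.65 and -1.47) and the condensin II subunit NCAPD3 (-1.83 and -1.64) fell, while TOP2B, the topoisomerase also used outside division, rose (0.51 and 0.53), the opposite of TOP2A. Genes of cohesin and its regulators were mixed: of 14, 9 fell and 3 rose with mix 2, and 8 fell and 4 rose with mix 1 (medians -0.31 and -0.42). CDCA5, which encodes sororin, the protector of sister cohesion (-3.71 and -2.34), and the acetyltransferase ESCO2 (-2.13 and -1.91) fell, and ESCO1, its relative (0.95 and 0.81), and the cohesin loader MAU2 (0.48 and 0.72) rose. ESCO2 had 5.50, 5.69, 5.64 and 5.25 log2 with mix 2, 5.21, 5.07, 6.31 and 6.36 with mix 1 and 6.90, 6.73, 8.36 and 8.61 with control siRNA, and arrays C and D stood above A and B with mix 1 and with control siRNA but not with mix 2. When all probe sets of ESCO1 were averaged, its difference with mix 1 was 0.75 and did not pass (adjusted p = 0.168).

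Of 15 other genes of the anaphase-promoting complex, which are its subunits, the enzyme UBE2S and the coactivator FZR1, 7 fell and 4 rose with mix 2, and 9 fell and 2 rose with mix 1 (medians -0.12 and -0.23). The subunit CDC23 (-2.50 and -1.66) and the ubiquitin chain-extending UBE2S (-2.58 and -1.58) fell, and ANAPC16 (1.01 and 0.81) rose. ANAPC11 rose by 0.22 and 0.20, and its other probe set pointed the other way (-0.29 and -0.38). That probe set was dim, with a mean of 5.37 log2 below the filter value. It passed with neither mix in the limma fit over probe sets (adjusted p = 0.19 and 0.078). Spindle pole, augmin and gamma-tubulin genes fell in 13 of 18 cases with each mix, with 2 rising under mix 2 and 3 under mix 1 (medians -0.77 and -0.78). KIF2C, the microtubule depolymerase MCAK (-2.79 and -1.68), and the augmin subunit HAUS8 (-2.17 and -1.74) fell. NUMA1, which anchors spindle poles, rose (0.86 and 0.75), as did TUBGCP2 of the gamma-tubulin complex (0.34 and 0.39), though not when its probe sets were averaged (adjusted p = 0.0834 with mix 2 and 0.38 with mix 1).

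Of 13 genes of the mitotic entry and exit switch, 11 fell and none rose with mix 2, and 9 fell and 3 rose with mix 1 (medians -2.28 and -1.28). The phosphatase CDC25A, an activator of CDK1 and CDK2 (-4.06 and -2.41), and the Greatwall kinase MASTL (-2.73 and -2.09) fell most. Of 11 genes of the MuvB and DREAM complexes, 7 fell and 1 rose with mix 2, and 10 fell with none higher with mix 1 (medians -1.06 and -0.96), E2F5 (-2.66 and -1.12) and LIN9 (-2.52 and -1.19) most. All 10 mitotic kinesins fell with each mix (medians -2.39 and -1.79), KIF23, the motor partner of RACGAP1 (-4.32 and -2.93), and KIF15 (-4.15 and -2.27) most. The mix 2 means of CDC25A, LIN9 and KIF15 (5.62, 5.73 and 5.69) were close to the filter value. The sizes of their falls with mix 2 are therefore uncertain. The 6 MCM helicase genes, which act in DNA replication and not in mitosis, also all fell (medians -1.99 and -1.90), MCM2 (-3.38 and -2.48) and MCM4 (-2.07 and -2.09) most.

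**Figure D5:**
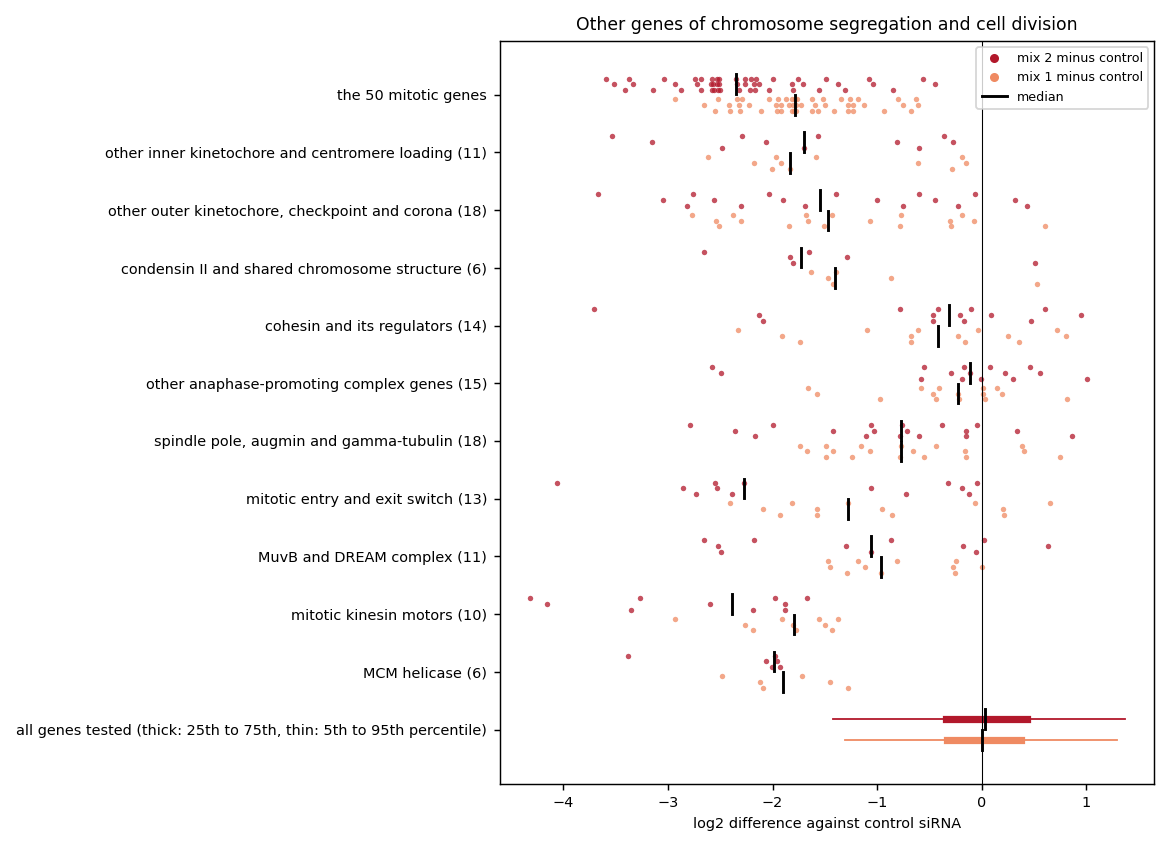
Log2 differences against control siRNA (x axis) of the 50 genes and of 10 lists of other division genes, 1 point per gene, mix 2 (dark red) above mix 1 (orange), with black lines for medians and, at the bottom, the spread of all 13225 genes tested. With mix 2 the medians of the kinesins (-2.39) and of the 50 genes (-2.35) lie furthest left, and with each mix those of cohesin and of other anaphase-promoting complex genes lie nearest 0.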

How the data were processed

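The log2 values that the authors deposited, for 12 Affymetrix Human Genome U133 Plus 2.0 arrays, came from RMA, per the submitters' processing notes. Software, version and options were not given in the sources used here. RMA gives all arrays a common distribution, so a change common to every gene would not show. Of 54675 probe sets, 41091 carried exactly 1 gene symbol in the platform annotation and were no controls; symbols were updated through gene IDs with RefSeq (GRCh38.p14). Probe sets with a mean above the 40th percentile (5.46 log2) were kept, and the brightest stood for each gene, which left 13225 genes. Of the 50 chosen probe sets, 24 have names ending in _s_at or _x_at and can bind related transcripts. 

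Differences were tested with limma 3.58.1 in R 4.3.3 (3 group means over 12 arrays, 9 residual degrees of freedom, default eBayes), two-sided and adjusted by Benjamini-Hochberg over all 13225 genes, with a threshold of 0.05. SE and 95% intervals come from this fit; the number of arrays limits the precision. The fit was also run on simulated data with independent noise on each array, which cannot show its error rate where arrays deviate together. The genes and lists were chosen with earlier results of these data known. Values on every array are given for the largest and smallest fall of each role group (by the mean over both mixes) and for genes that did not pass a comparison; ASPM, TOP2A, MKI67 and ESCO2 were added after their values were seen. Of each list of other genes, up to 2 per direction that passed with both mixes are named. Alternatives were other filters, other handling of probe sets, other normalizations and fits, a replicate block and leaving out each array.

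Whether letters pair the arrays was checked from correlations of their deviations from group means. Between mix 1 and control same letters (A to D) gave 0.370, 0.251, 0.409 and 0.340, each over 0.1, so a pairing is possible. Different letters ranged from -0.428 (mix 1 A with control C) to 0.374 (mix 1 B with control A). Mix 1 A with control B gave 0.232 and mix 1 D with control C 0.286, but mix 1 C with control D -0.003. Every pair of A or B with C or D was below 0, from -0.428 to -0.083. Mix 1 and control arrays thus split more into A with B and C with D than by letter. The values do not settle a pairing by letter, and the source of the split was not tested. Between mix 2 and control such pairs had both signs, as mix 2 B with control C (0.155) and mix 2 D with control B (-0.311). A pairing would come from these values alone, and the labels name none. Between mix 2 and control same letters gave 0.119, 0.034, 0.048 and 0.212, and between mix 2 and mix 1 0.273, -0.085, 0.202 and 0.191. Promoters were 250 bases before the start in a RefSeq table of GRCh38.p14; motifs were searched on both strands.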

Additional observations from a re-analysis of the deposited data

Results flagged for a closer look

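In 10 of the 150 groups of 4 arrays (50 genes in 3 groups), 1 array lay far from the other 3 by Dixon's test at the usual level; chance alone gives about 1 in 20. With mix 2, array B was low for CDK1 (9.65, the others 9.96 to 9.99), array D was low for NCAPD2 (7.70, the others 7.99 to 8.02) and array D was high for CKAP2 (10.42, the others 10.34 to 10.35). With mix 1, array B was low for CENPN (9.61, the others 9.81 to 9.85) and high for SPC24 (7.33, the others 7.07 to 7.09). With control siRNA, array C was low for BUB1 (10.64, the others 10.74 to 10.76), and array B was high for UBE2C (12.73, the others 12.64 to 12.65). Control array D was high for SGO2 (10.85, the others 10.60 to 10.64) and ASPM (11.52, the others 11.31 to 11.33) and low for NCAPH (10.37, the others 10.43 to 10.44). For each of these genes all knockdown arrays still lay below all control arrays.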

How the results depend on the processing

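Under 21 alternative settings the calls against control held for every one of the 50 genes tested: 50 with each mix in every setting except the filter at the 60th percentile (46 of 46 genes) and the one without shared probe sets (36 of 36). Leaving out any array kept 50 and 50. Between the mixes 39 to 41 were lower when 1 array was left out, 39 without a filter or with only the groups compared, 43 with all probe sets averaged, 37 of 46 at the 60th percentile and 28 of 36 without shared probe sets. With the replicate block the counts were 50, 50 and 41 for mix 2, mix 1 and the difference between the mixes, and BUB3 was the call it added (adjusted p = 0.0411); the block changed no other call on the 50 genes.

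Of the differences between the mixes, those with a turned sign were AURKA without shared probe sets (0.033), CENPN with all probe sets averaged (-0.73), without shared probe sets (-1.32) and without mix 1 replicate B (-0.005; range over left-out arrays -0.005 to 0.105), and INCENP without mix 2 replicate A (range -0.23 to 0.062). HMMR turned with all probe sets averaged (0.019), without mix 1 replicate A (0.047) and without mix 2 replicate B (range -0.13 to 0.053), and SMC2 with all probe sets averaged (0.07) and without shared probe sets (0.22, where it passed as higher with mix 2, as did ECT2 with all probe sets averaged, 0.30). YAP1 turned without mix 1 replicate A (0.033) or B (0.027; range -0.22 to 0.033), and WWTR1 with all probe sets averaged (0.047). Against control, ANAPC11 turned without shared probe sets, where a dim probe set stood for it. It passed with neither mix (-0.29, limma adjusted p = 0.15, with mix 2 and -0.38, adjusted p = 0.0584, with mix 1). Without shared probe sets and with all probe sets averaged, other probe sets stand for the genes; for single arrays the cause was not tested.

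List counts that moved by over 1.5 times did so mostly without shared probe sets, where fewer genes were tested. In that setting the lower counts were 9 of 13 for other outer kinetochore and 3 of 4 for condensin II with mix 2, 3 of 4 for condensin II and 4 of 11 for cohesin with mix 1, and between the mixes 5 of 13 for outer kinetochore, 2 of 4 for condensin II and 2 of 4 for MCM. The higher counts there were, with mix 2, 1 for outer kinetochore, 2 for other anaphase-promoting complex genes and 1 for spindle pole; with mix 1, 1 for other anaphase-promoting complex genes and 1 for MuvB; and between the mixes 0 for cohesin and 0 for the entry and exit switch. With all probe sets averaged the higher counts were 1 each for outer kinetochore, spindle pole and the entry and exit switch with mix 2, 1 for MuvB with mix 1, and 2 each for the entry and exit switch and MuvB between the mixes. Between the mixes 1 MCM gene was higher at the 60th percentile, under quantile normalization and without mix 2 replicate D; the range over left-out arrays was 0 to 1. Signals near background and a shift hidden by RMA limit these values.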
